A study of Mus musculus with 2 samples.

Results

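The replication-dependent histone genes were taken as the annotated genes with a symbol of the form Hist1 to Hist4 followed by h1, h2a, h2b, h3 or h4 and with at least 1 transcript annotated as protein-coding. This rule gave 67 genes of the 70 with such a symbol, out of 55536 genes in all, of which 22028 were protein-coding. By class there were 6 H1, 18 H2A, 18 H2B, 12 H3 and 13 H4 genes. By cluster there were 54 in Hist1 on chromosome 13, 10 in Hist2 on chromosome 3, 2 in Hist3 on chromosome 11 and 1, Hist4h4, on chromosome 6. Expression played no part in the choice.

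Their RNA was measured in 2 libraries, biological replicates 1 and 2 of a single group, by RNA-seq of total RNA depleted of ribosomal RNA. The cells were bone marrow-derived macrophages (BMDM) from the mouse strain C57BL/6J, that is, marrow precursors matured into macrophages in culture, and RNA was taken from the nucleoplasm, the soluble part of the nucleus. Both cultures had received 100 ng/ml Lipid A, the bacterial membrane lipid sensed by Toll-like receptor 4, for 12 h, had then been kept without it for 12 h, and were collected at 0 min of a second exposure. Replicate 1 was made from 1 µg of RNA and replicate 2 from 500 ng, so input and replicate cannot be told apart. With a single group there was no contrast to test, and every value below is a description of these 2 libraries. The libraries held 22907877 and 18612405 expected counts, which are estimated numbers of reads per gene. Levels are given as TPM, an abundance corrected for length and scaled to a fixed total, and every ± is the SD over n = 2 libraries.

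Replication-dependent histone genes supply the H1, H2A, H2B, H3 and H4 proteins that package newly made DNA, and are known for being transcribed mostly in S phase. As a rule their transcripts have no introns and no poly(A) tail: the 3′ end is formed by a cut just after a conserved stem-loop, which is bound by the protein Slbp. When DNA synthesis stops, these messages are degraded quickly, by enzymes recruited to the same stem-loop. Some members are also known to give longer, polyadenylated transcripts in cells that have left the cell cycle.

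The stem-loop was looked for in the annotated transcripts, within 100 bases after the stop codon, as a match to a fixed consensus of 16 bases. The first 6-base arm was GG, 3 bases of C or T, then T. The 4-base loop was T, any base, T, any base, and the other arm was A, 3 bases of A or G, then CC. Pairing of the arms was not required, and other hairpins were not looked for. A match was present in 46 of the 67 genes, at 21 to 58 bases from the stop codon with a median of 31. By the same search a match was present in 3 of 21834 other protein-coding genes, or 0.0137%, namely H2afx, H2bfm and Nemp1. The 46 genes shared 8 distinct forms. One gene for each form is printed below, chosen to show how the arms differ between H4 and the other classes. Capitals mark the 16 bases of the stem-loop, lower case the annotated bases beside it, up to 5 on each side, from the GENCODE M21 transcript sequences, 5′ to 3′.
Hist3h2a: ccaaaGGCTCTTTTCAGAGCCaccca
Hist2h2ac: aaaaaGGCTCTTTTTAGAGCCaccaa
Hist1h3e: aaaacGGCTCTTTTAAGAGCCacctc
Hist1h3g: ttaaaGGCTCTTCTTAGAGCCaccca
Hist1h4m: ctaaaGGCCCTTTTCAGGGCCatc
Hist1h4i: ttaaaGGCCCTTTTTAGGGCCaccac
Hist1h4b: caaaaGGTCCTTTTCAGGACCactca
Hist1h4a: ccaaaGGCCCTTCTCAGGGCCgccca

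The arm set H4 apart from the other classes, which all shared their commonest form. The forms printed for Hist1h3g and Hist2h2ac occurred in those genes only. All 34 stem-loops of H1, H2A, H2B and H3 genes opened with GGCTC, and none of the 12 H4 stem-loops did. Of those 12, 10 opened with GGCCC and 2, in Hist1h4b and Hist1h4j, with GGTCC. The form printed for Hist3h2a was the commonest, with 3 H1, 10 H2A, 8 H2B and 5 H3 genes. In Hist1h4m the annotated transcript ends 3 bases after the stem-loop, whereas in Hist3h2a it runs on for 1643 bases. Of the 21 genes without a match, 17 have models with under 60 bases after the stop codon, 13 of them with 0, so the search window was not fully covered there. The other 4, Hist1h2bc, Hist2h2be, Hist1h2bq and Hist1h2br, have longer annotated ends without a match. Of these, Hist1h2bc, Hist1h2bq and Hist1h2br span more of the chromosome than their longest transcripts, of 1156, 2015 and 2197 bases. The search read transcripts only, so a stem-loop elsewhere in these genes would have been missed.

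Together the 67 genes held 0.0352% of the expected counts in replicate 1 (95% exact Clopper-Pearson interval 0.0344 to 0.0359%, counting error only) and 0.0242% in replicate 2 (0.0235 to 0.0250%). Hist3h2a alone held 30.4% and 29.4% of these counts. In summed TPM the 10 highest genes of each library held 58.8% and 53.8%. The group was therefore led by few genes, and most of its members were low.

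A gene was called detected when both libraries gave it 1 TPM or more, and 40 of the 67 were, beside 44.4% of all protein-coding genes. Of the rest, 12 reached 1 TPM in replicate 1 only, 1 in replicate 2 only and 14 in neither. At 10 TPM or more in both libraries there were 4: Hist3h2a, Hist2h2aa2, Hist1h2bc and Hist1h4m. A second deposited quantification, made from the reads rather than from alignments, detected 32 genes, each of them among the 40. The summed TPM of the 67 genes was lower there, at 187 and 159 against 426 and 244.5. The cut of 1 TPM was therefore not equal in the 2 quantifications. No share over all genes was computed at 10 TPM or for the second quantification. The order of the genes was much the same in both quantifications, with Spearman's rho of 0.972 and 0.941 over the 67 genes of each library, and between the libraries it was 0.883. These are descriptions across genes of shared libraries.

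**Figure D1:**
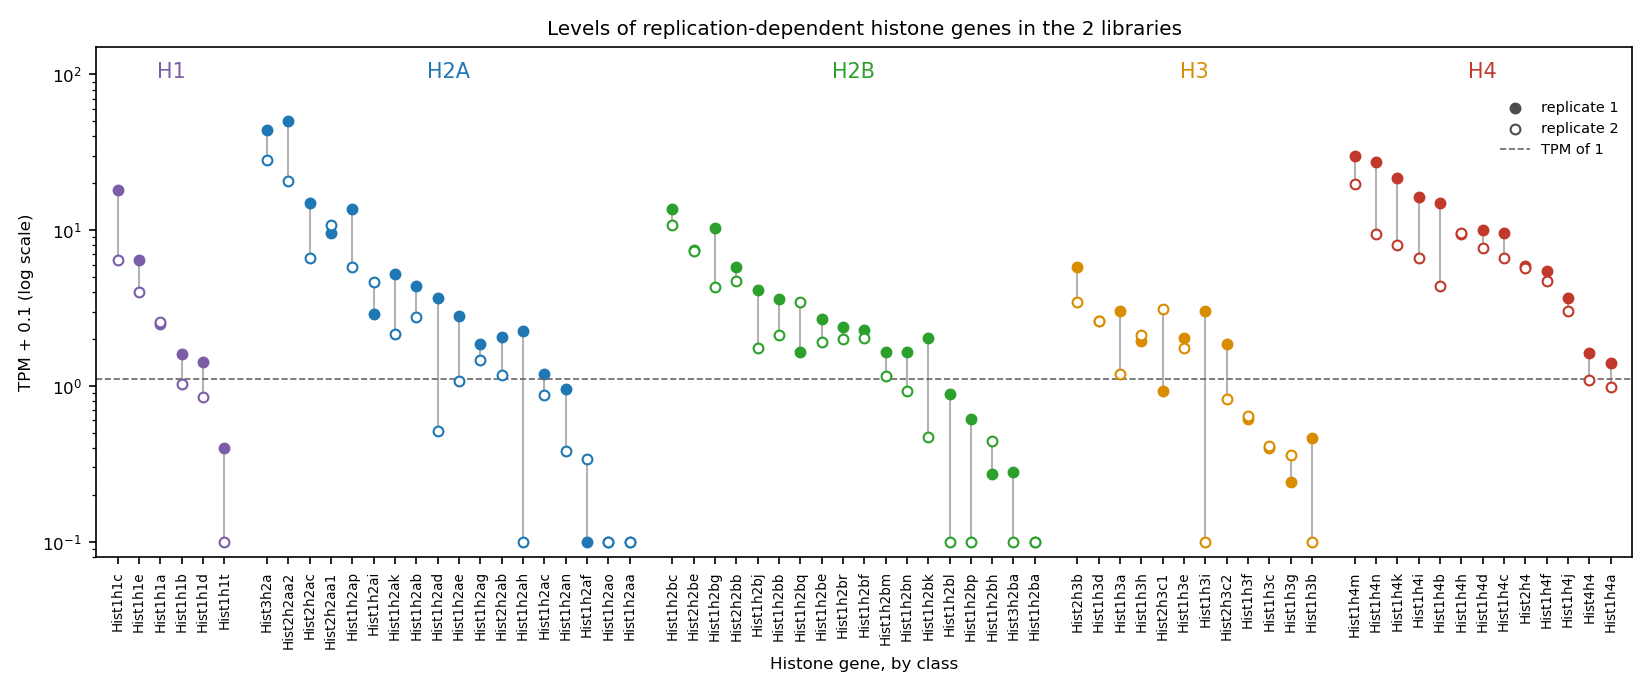
TPM + 0.1 on a log scale for each of the 67 genes (x axis, grouped by class and ordered by mean), with filled points for replicate 1, open points for replicate 2 and a dashed line at a TPM of 1. H4 genes lie higher than the other classes, with 11 of 13 above the line in both libraries, and most filled points lie above the open ones.

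H4, which forms the core of the nucleosome with H3, was the class with the highest typical level. Its median on the log2(TPM + 0.1) scale was 2.99 ± 0.39, compared with 0.85 ± 0.20 for H1, 0.95 ± 0.79 for H2A, 0.99 ± 0.16 for H2B and 0.46 ± 0.66 for H3. H4 also had the highest class median in each library, in the second quantification, and per annotated length without the correction for fragment size. The number of genes detected was 11 of 13 for H4, 11 of 18 for H2B, 10 of 18 for H2A, 5 of 12 for H3 and 3 of 6 for H1. The share over all protein-coding genes was 44.4%, and the counts for H3 and H1 lie near it. Summed over a class, H2A (122 ± 51.3 TPM) and H4 (121 ± 49.5) were the highest and within each other's spread. H2B followed with 50.9 ± 12.5, H1 with 22.1 ± 10.8 and H3 with 18.6 ± 4.41 TPM, and the last 2 also overlapped. In bulk RNA, fewer cells with a transcript and less of it per cell cannot be told apart.

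H1 is the linker histone, which binds the DNA between nucleosomes. Hist1h1c (chr13:23738808-23740367, + strand, mm10) had 17.9 TPM in replicate 1 and 6.37 in replicate 2, from 688 and 210 counts. Hist1h1e had 6.29 and 3.88 TPM and Hist1h1a 2.38 and 2.48, so that Hist1h1c was the highest H1 gene in both libraries, although its level in replicate 2 was close to that of Hist1h1e in replicate 1. Hist1h1e overlaps the annotated span of Hist1h2be in part, on the same strand, so their reads may not be fully separable. Hist1h1d had 277 and 133 counts, but its annotated transcript is 7425 bases long, with 4884 of them after the stem-loop, and its level came to 1.33 and 0.75 TPM. Hist1h1t, a linker form known from the testis, had 6 counts in replicate 1 and none in replicate 2, where 3 counts would have been 0.176 TPM.

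H2A was led by Hist3h2a and Hist2h2aa2. Hist3h2a (chr11:58954685-58956830, + strand) had 44.1 and 28.0 TPM from 2449 and 1326 counts. It lies on the same strand as Trim17, a ubiquitin ligase gene that shares its start and had 2.68 TPM in both libraries, and reads from the shared stretch were assigned by estimation. Hist2h2aa2 (chr3:96239749-96240276, - strand) had 50.2 and 20.7 TPM, and Hist2h2aa1 had 9.55 and 10.8. The coding sequences of these 2 genes are identical, and the split between them is uncertain: the deposited SD of each count estimate was 21.7 and 23.9 counts for Hist2h2aa2. Their sum was 59.8 TPM in replicate 1 and 31.5 in replicate 2, higher than any single H2A gene in either library. Hist2h2ac had 14.9 and 6.55 TPM from 124 and 49 counts, and Hist1h2ap had 13.6 and 5.72 TPM from 98 and 38.

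The Hist1 H2A genes were lower than those of Hist2. Of 13 in Hist1, 5 were detected, near the 44.4% of all protein-coding genes, with medians of 2.15 and 0.77 TPM. All 4 in Hist2 were detected, with medians of 12.2 and 8.65 TPM. The lowest of these 4 was Hist2h2ab, at 1.96 and 1.07 TPM. Hist1h2aa, a testis form, and Hist1h2ao had no count in either library. For Hist1h2aa, 3 counts would have been 0.651 and 0.694 TPM. Hist1h2ao has the same coding sequence as Hist1h2ap, so reads from one could be given to the other.

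H2B was led by Hist1h2bc and Hist2h2be, which are 2 of the 4 genes whose annotated ends run on without a match to the stem-loop consensus. Hist1h2bc (chr13:23684199-23692908, + strand) had 13.6 and 10.7 TPM from 363 and 246 counts. Hist2h2be (chr3:96221119-96223738, + strand) had 7.38 and 7.28 TPM from 511 and 429 counts, and was the closest between libraries of the genes averaging 100 counts or more. Hist1h2bg had 10.3 and 4.24 TPM, so its place against Hist2h2be was reversed between libraries. Hist2h2bb had 5.69 and 4.59 TPM from 25 and 19 counts, and its single model stops at the stop codon. Hist1h2ba, the testis H2B, had no count in either library, with 3 counts equal to 0.676 and 0.718 TPM.

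H3 genes were low throughout, with none at 10 TPM. Hist2h3b had 5.71 and 3.38 TPM from 42 and 23 counts, Hist1h3d had 2.52 and 2.50, and Hist1h3a had 2.93 and 1.10. The lowest by mean was Hist1h3b, at 0.36 TPM in replicate 1 and without a count in replicate 2, where the limit of 3 counts was 0.302 TPM. Hist2h3c1 and Hist2h3c2 have identical coding sequences and were called differently in each library: Hist2h3c1 had 0.83 and 3.0 TPM, and Hist2h3c2 had 1.76 and 0.72. Their sum, 2.59 and 3.72 TPM, differed less between the libraries than Hist2h3c1 did. Hist2h3c1 also lies within the annotated span of Gm20634 on the same strand, so their reads may not be fully separable.

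H4 genes encode near-identical proteins from many loci, and their levels spanned a wide range. Hist1h4m (chr13:21811746-21812147, + strand) had 29.9 and 19.7 TPM from 147 and 91 counts. Hist1h4n, with the same coding sequence, had 27.4 and 9.33 TPM, and the pair summed to 57.3 and 29.0 TPM. Hist1h4k (chr13:21750194-21750505, - strand) had 21.6 and 7.95 TPM from only 55 and 20 counts, because its model of 312 bases left an effective length, the number of positions a fragment can start from, of 88.1 and 102 bases. In the second quantification Hist1h4k had the highest level of all members in replicate 1, at 20.8 TPM, and 15.0 TPM in replicate 2. Hist2h4 had 5.78 and 5.59 TPM. Hist4h4, the only member on chromosome 6, had 1.52 and 0.99 TPM from 116 and 64 counts. The lowest was Hist1h4a, at 1.30 and 0.89 TPM, and so no H4 gene was without counts.

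**Figure D2:**
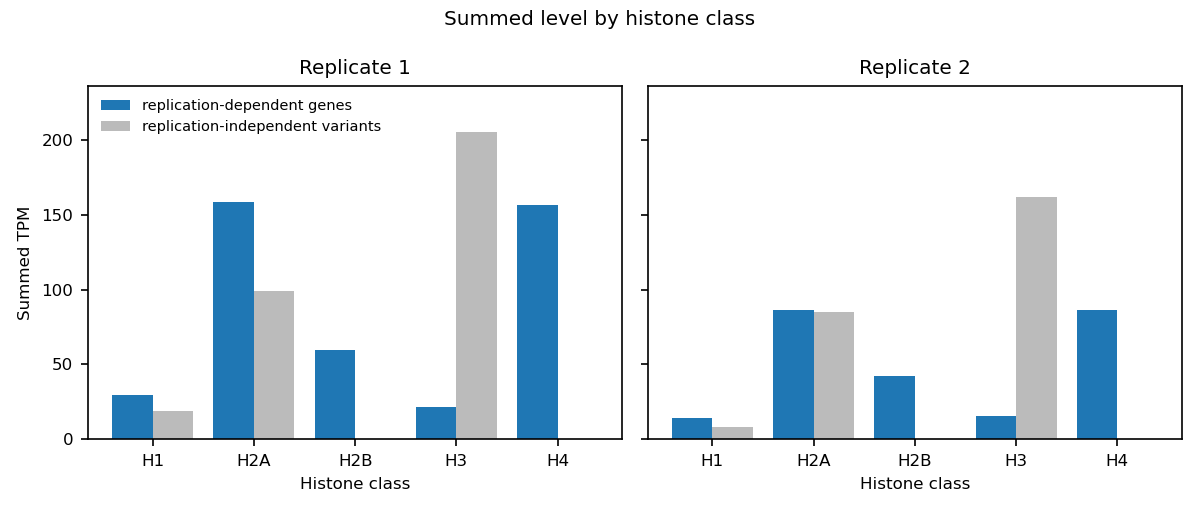
Summed TPM (y axis, linear from 0) of the replication-dependent genes (blue) and of the listed replication-independent variants (grey) by class, in replicate 1 (left) and replicate 2 (right). No variant was listed for H2B and H4. The grey H3 bar, 206 and 162 TPM, stands above the blue H3 bar, 21.7 and 15.5 TPM, in both libraries, while in the other 2 classes with variants the blue bar is the higher.

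Replication-independent variants are histones that can be placed in chromatin outside DNA replication, many of them made from ordinary polyadenylated transcripts. The 11 listed include H2afx, which has the histone stem-loop, and Cenpa, which is known to follow the cell cycle. Of the 11, 9 were detected, beside 44.4% of all protein-coding genes. The highest was H3f3b, a gene for the replacement form of H3, with 169 and 136 TPM. H2afy, which encodes macroH2A, had 56.7 and 43.7 TPM, and H3f3a, the other gene for replacement H3, had 35.2 and 24.0. The lowest was H1fx, with no count in replicate 1 and 1 in replicate 2. In H3 the replication-dependent genes held 9.57% and 8.72% of the summed TPM of members and variants. In H2A they held 61.5% and 50.4%, and in H1 60.8% and 64.1%. The second quantification gave 8.34% and 8.28% for H3, 57.3% and 48.3% for H2A, and 62.1% and 66.7% for H1. H3 thus had the smallest replication-dependent share in each library and quantification, and in H2A the side of the larger sum was not the same in all 4 values.

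Annotated ends differed among the members. The model ended within 100 bases after the stem-loop in 23 genes, extended farther in 23 and held no match to the consensus in 21. The genes detected were 16, 12 and 12, beside 44.4% of all protein-coding genes. Hist1h2be, with several annotated transcripts, gave 1.06 of its 2.59 TPM in replicate 1 and 1.04 of 1.82 TPM in replicate 2 to a transcript annotated as non-coding. Since a longer model lowers TPM for the same reads, the levels of these 3 sets depend on annotation, and the deposited tables do not place reads along a transcript.

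**Figure D3:**
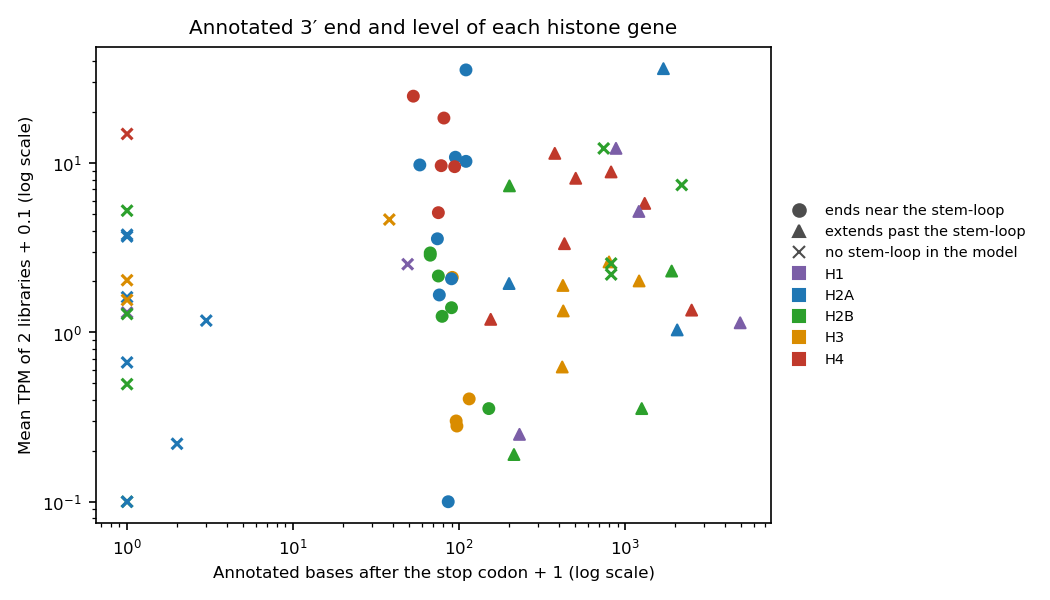
Mean TPM + 0.1 of the 2 libraries (y axis, log scale) against the annotated bases after the stop codon + 1 (x axis, log scale), with the symbol giving the kind of 3′ end and the colour the class. Genes at the upper end occur with each kind of end, from Hist1h4k at 0 bases after the stop codon through Hist2h2aa2 at 109 to Hist3h2a at 1700.

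Many H2A and H2B genes lie head to head and share a promoter region. There were 12 such divergent pairs, with starts 175 to 305 bases apart and a median of 258.5. The DNA of 2 of them is printed for their order in TPM. H2B was the higher gene in both libraries in the first and only in replicate 2 in the second. Both are RefSeq promoters (build GRCm38.p6), 250 bases before to 50 after the annotated start, 5′ to 3′ on the gene's strand. Capitals mark 3 motifs on either strand. They are CCAAT, the box bound by NF-Y, then TATAAA, the core of a TATA box, and the octamer ATTTGCAT, bound by the product of Pou2f1.
Hist1h2bg, chr13:23571150-23571449, + strand: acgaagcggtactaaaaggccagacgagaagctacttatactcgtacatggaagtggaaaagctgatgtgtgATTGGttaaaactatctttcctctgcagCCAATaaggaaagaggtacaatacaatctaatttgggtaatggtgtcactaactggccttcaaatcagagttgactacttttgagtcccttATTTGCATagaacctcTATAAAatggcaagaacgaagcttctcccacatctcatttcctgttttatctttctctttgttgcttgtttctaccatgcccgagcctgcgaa
Hist2h2ac, chr3:96220831-96221130, - strand: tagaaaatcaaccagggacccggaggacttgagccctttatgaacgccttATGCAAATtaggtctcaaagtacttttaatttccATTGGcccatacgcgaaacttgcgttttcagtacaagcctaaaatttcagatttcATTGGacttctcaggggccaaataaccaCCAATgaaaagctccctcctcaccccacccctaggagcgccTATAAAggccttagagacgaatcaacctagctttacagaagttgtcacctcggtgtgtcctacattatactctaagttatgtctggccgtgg

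The 2 regions hold the same motifs. The first lies between Hist1h2bg and Hist1h2ae, whose starts are 175 bases apart, and there H2B was the higher gene: 10.3 against 2.71 TPM in replicate 1 and 4.24 against 0.98 in replicate 2. The second lies between Hist2h2ac and Hist2h2be, 238 bases apart. In TPM, H2A was higher there in replicate 1, at 14.9 against 7.38, and lower in replicate 2, at 6.55 against 7.28. In counts H2A was the lower gene in both libraries, with 124 and 49 against 511 and 429. The annotated transcripts are 520 bases long for Hist2h2ac and 2620 for Hist2h2be, so the order in TPM depends on annotation.

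The class of the higher gene varied among the 12 pairs. H2A was the higher gene in both libraries in 4 pairs and H2B in 4. Of these, Hist1h2ap with Hist1h2br counts for H2A and Hist1h2ao with Hist1h2bq for H2B. The coding sequences of the 2 H2A genes are identical, as are those of the 2 H2B genes, so reads of one pair could be given to the other. Summed over both pairs, H2A had 13.6 and 5.72 TPM and H2B 3.85 and 5.26, so H2A was higher in both libraries. The median of the H2A minus H2B difference in log2(TPM + 0.1) was 0.40 in replicate 1 and -0.21 in replicate 2, for a mean of 0.10 ± 0.43. Spearman's rho between the levels of the 2 genes was 0.343 and 0.248 over the 12 pairs, given as a description of pairs that share libraries and promoter regions. The largest mean differences were those of Hist1h2ao and Hist1h2bq, at -4.58 ± 0.76, and of Hist1h2ai and Hist1h2bl, at 3.62 ± 2.72, each resting on a gene at 0 in a library. Among pairs with counts in all 4 values, the widest was Hist1h2ac and Hist1h2bc, at -3.57 ± 0.08, with 1.10 against 13.6 TPM and 0.77 against 10.7. Their annotated transcripts are 2482 and 1156 bases long, which enters the size of this difference. The smallest were Hist1h2aa and Hist1h2ba, both at 0, and Hist2h2ac and Hist2h2be, at 0.43 ± 0.82.

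**Figure D4:**
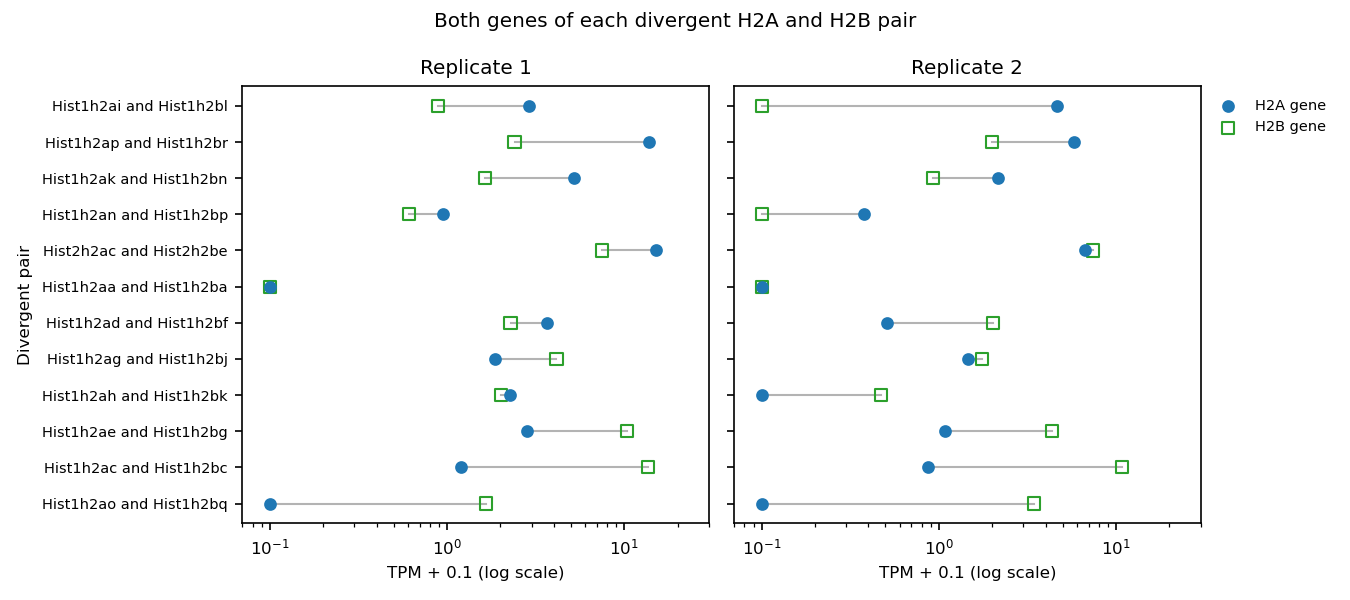
TPM + 0.1 (x axis, log scale) of the H2A gene (filled blue) and the H2B gene (open green) in each of the 12 divergent pairs, ordered by their mean difference, in replicate 1 (left) and replicate 2 (right). H2A leads at the top and H2B at the bottom, and 4 pairs in the upper part and 4 in the lower keep their order in both libraries.

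Promoters of 62 members were found in the RefSeq table, 63 promoters in all. CCAAT was present on either strand in all 51 promoters of H1, H2A, H2B and H3 genes and in 3 of 12 of H4 genes, beside 37.4% of the 32851 promoters in the table. ATTTGCAT was present in 7 of 18 H2A and 7 of 17 H2B promoters and in none of H1, H3 or H4, beside 1.74% of all. Windows of divergent pairs can overlap, so the same site can be counted for an H2A and an H2B gene, as for the octamer of Hist1h2ae and Hist1h2bg. The counts for these classes are therefore not of separate stretches of DNA. AAACACA, a motif named for H1 promoters, was present in 5 of 6 H1 promoters, beside 7.18% of all. TATAAA was present in 55.6% of member promoters, beside 13.6% of all. A match is a description of letters in this window and no measure of binding.

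The 2 libraries differed in the same direction for most members. A log2 ratio of replicate 2 over replicate 1 was computed from expected counts after TMM scaling, so the ratio of a typical gene lies near 0. Among 37 members averaging 20 counts or more, 30 were lower in replicate 2, beside 49.6% of all genes past the same minimum, and the median ratio was -0.55, beside 0.00 for all genes with quartiles of -0.25 and 0.25. Protein-coding genes of up to 1000 bases, a comparison added after the values were seen, were lower in replicate 2 in 63.7% of 776 cases with a median of -0.17. In the second quantification 33 of the 37 were lower and the median was -0.48, with 29 lower in both. Because there is 1 library on each side, no p-value can be given.

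**Figure D5:**
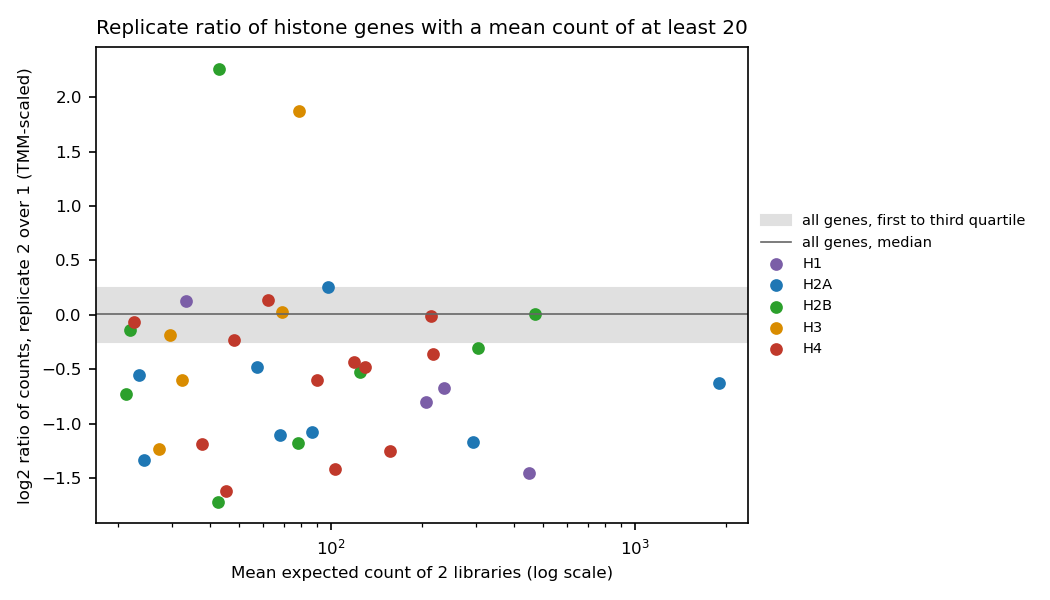
log2 ratio of TMM-scaled counts of replicate 2 over replicate 1 (y axis) against the mean expected count (x axis, log scale) for the 37 members averaging 20 or more, coloured by class. The grey band holds the middle of all genes, from -0.25 to 0.25, and 30 of the 37 points lie below 0.

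Among the 14 members averaging 100 counts or more, 4 were lower by a log2 ratio of 1 or more, beside 1.17% of all genes with such counts, and none was higher by as much, beside 0.824%. Hist1h1c had the largest ratio, -1.45 (interval from counting error -1.68 to -1.23). Hist1h4n followed at -1.42 (-1.91 to -0.94), Hist1h4i at -1.25 (-1.64 to -0.88) and Hist2h2aa2 at -1.17 (-1.44 to -0.90). Hist1h4i, at chr13:22040636-22041362 on the - strand, had 16.2 and 6.48 TPM. Hist1h4n and Hist2h2aa2 share their reads with identical partners, and the scaled ratio of the summed counts was -0.86 for Hist1h4m with Hist1h4n and -0.78 for Hist2h2aa1 with Hist2h2aa2, both short of 1. With identical genes merged, a comparison added after the values were seen, 2 of 14 units were lower by 1 or more, Hist1h1c and Hist1h4i. In that count 1 was higher, Hist2h3c1 with Hist2h3c2 at 1.02, and 12 of the 14 were below 0. Hist2h3c1 lies within the span of Gm20634 on the same strand, which had 388 and 316 counts and was not merged. Hist2h2aa1 overlaps Gm20634 in part, so merging did not remove all sharing of reads. Hist2h2be was the only one of the 14 that was not lower, at 0.00 (-0.19 to 0.19), and Hist2h4 was close to it at -0.01.

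The ratio was not even across the members. In the gene-level counts the medians by class were -0.74 for H1, -0.85 for H2A, -0.42 for H2B, -0.18 for H3 and -0.46 for H4, from 4, 8, 8, 5 and 12 genes. In the second quantification they were -0.52, -0.68, -0.29, -0.42 and -0.49, so H3 was the class nearest 0 only in the gene-level counts. By annotated end they were -0.73 for the 11 genes ending near the stem-loop, -0.56 for the 18 extending past it and -0.22 for the 8 without one. The 2 genes that were far higher in replicate 2, Hist1h2bq at 2.26 and Hist2h3c1 at 1.88, each had an identical partner that was lower, Hist1h2br at -1.72 and Hist2h3c2 at -1.23. A transcript annotated as nonsense-mediated decay had 0 and 47.85 counts in Hist1h2bq, and another had 60.53 and 9.87 in Hist1h2br. The protein-coding transcripts of 381 bases had 5.05 and 6.98 counts in each of these 2 genes. The scaled ratio of the summed counts was 0.29 for Hist1h2bq with Hist1h2br, from 84.4 and 86.4 counts, and 1.02 for Hist2h3c1 with Hist2h3c2, from 78.4 and 132.6. The second quantification gave 0.11 and 1.71.

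Levels of the replication programme were also listed. Of the 18 S phase genes listed, 13 were detected. The share detected over all protein-coding genes was 44.4%, which stands beside this list and those below. Of the 18, only Pcna, the sliding clamp of DNA polymerase, was at 10 TPM or more in both libraries, with 23.3 and 22.1 TPM. Tk1, thymidine kinase, had 13.4 and 9.65 TPM and Mcm6, a helicase subunit, 7.03 and 7.31. The lowest was Cdc6, a licensing factor, at 0.32 and 0.52. Of the 18, 7 had a lower ratio in replicate 2 and 11 a higher one, with a median of 0.10, beside 49.6% lower among all genes past the minimum. The variants had a median of -0.16, and the 10 macrophage genes were all lower with a median of -0.41. The macrophage genes thus moved with the histone genes between the libraries, and their part in the result was not tested.

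Levels of genes that act on histone messages are given next. In the list for 3′ end processing 15 of 18 were detected, led by Srrt (55.6 and 61.6 TPM) and Wdr33 (26.1 and 28.2), of which Srrt works with the nuclear cap-binding complex and Wdr33 with the general cleavage machinery, and by Fip1l1 (21.8 and 26.4). Slbp, the stem-loop binding protein, had 11.2 and 11.0 TPM. Lsm10 and Lsm11, the proteins particular to the U7 particle that guides the cut, had 7.90 and 8.66 and 0.53 and 0.58 TPM. Rnu7, the U7 RNA itself, had no count, and its annotated gene is shorter than the 250 to 400 size range that the labels give for the libraries. In the list for decay of histone messages all 16 matched genes were detected, led by Smg1 at 68.9 and 68.8 TPM, a kinase of Upf1, Xrn1 at 30.2 and 27.7, the main 5′ exonuclease, and Dcp2 at 28.9 and 16.8, the decapping enzyme. Eri1, the exonuclease that binds the histone stem-loop, had 6.88 and 8.30 TPM, and the lowest was Lsm1 at 1.65 and 1.30.

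Among histone chaperones, which carry histones to DNA, 18 of 19 were detected. The highest were Daxx (124 and 72.3 TPM) and Atrx (78.6 and 86.5), which together deposit replacement H3, and Cabin1 (21.4 and 18.9), a partner of Hira. The lowest was Asf1b, at 0.71 and 1.32, and the replication-coupled assembly factors Chaf1a and Chaf1b had 1.19 and 1.31 and 2.13 and 2.82 TPM. Of the 9 regulators of histone gene transcription 8 were detected. Hinfp, which binds H4 promoters, had 16.1 and 15.9 TPM, Gon4l 11.7 and 13.0, and Cdk2, the kinase that activates Npat, 10.04 and 10.55. Npat, the activator that gathers at histone gene clusters, had 2.96 and 3.73 TPM, and Ccne1 was the lowest at 0.82 in both.

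The cell type was checked on 10 macrophage markers, all 10 of which were at 10 TPM or more in both libraries. Lyz2 (lysozyme) had 1368 and 1126 TPM, Ctss (cathepsin S) 1105 and 635, Mpeg1 (a pore-forming protein) 805 and 667, and the lowest, the transcription factor Spi1, 50.2 and 43.5. None of 20 markers of other marrow cells reached 1 TPM in either library, and their sum was 1.68 and 1.69 TPM, with Camp, Cd3e and Mcpt4 at 0. The highest of them were the neutrophil genes S100a8 (0.55 and 0.30 TPM) and Ngp (0.28 and 0.57), then Flt3 (0.08 and 0.19). Of the 67 histone genes 24 overlap another annotated gene, 7 of them on the same strand and 21 on the other. Whether strand was used in counting is not given in the sources used here, so reads of such partners may not be separable. For 9 members the deposited error of the count estimate was over 20% of the counts, and for 11 it was 0 in both libraries.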

How the data were processed

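Both libraries came from nucleoplasmic RNA of 1 group of cultured mouse macrophages, and their replicate numbers were taken from the labels. The authors deposited gene-level expected counts and TPM derived from alignments to the transcriptome, transcript-level tables of the same units, and a second table of estimated counts and TPM derived from the reads, per the notes deposited beside the files. The same tables give, per the file headers, bounds of each TPM and a posterior standard deviation of each count, taken here as a signal with no stated confidence level. The assembly is mm10 and the annotation GENCODE M21, per the deposited notes. For programs, versions, filters and strand: not given in the sources used here.

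Genes were matched by identifier, and all 67 members were found in both tables. The members, gene lists and descriptions were chosen with earlier results of these data known. Levels were described as TPM or log2(TPM + 0.1). Ratios between the libraries used expected counts scaled by TMM over all genes in edgeR 4.0.16 under R 4.3.3, with a prior count of 0.5 and a mean count of at least 20. DESeq2 1.42.0 size factors were an alternative. With 1 library a side, no test was made. Intervals are exact at the 95% level and cover counting error only. A limit for a count of 0 stands for 3 counts. Stem-loops, coding sequences, promoters and overlaps were read with Python 3.11.15, pandas 2.3.3, numpy 2.4.6 and scipy 1.17.1. Expected counts were rounded to whole numbers for the ratios.

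The genes named were, by rule, the 3 highest and the lowest of each class and list, the detected genes of Hist2, Hist3 and Hist4, the largest ratios among members with a mean count of at least 100, the testis forms, and the 2 widest and 2 narrowest pairs. Others named beside them were chosen after their values were seen. Zcchc6 and Zcchc11 of the decay list had no matching symbol. Alternatives covered the pseudocount, the TPM threshold, count minimums, scaling, the second quantification, merged identical genes and each library left out.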

Additional observations from a re-analysis of the deposited data

How the results depend on the processing

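No paired analysis was possible because both libraries belong to 1 group. Class medians of log2(TPM + 0.1) moved under several settings. With a pseudocount of 1 they were 1.46 for H1, 1.53 for H2B and 1.21 for H3. Over members with a mean count of at least 10 they were 1.34 for H1, 2.05 for H2A and 1.47 for H2B. In the second quantification H1 turned to -0.0069 and H3 to -0.27, H2B was 0.11 and H4 1.81. Reads per kilobase gave H2B 0.47. A larger pseudocount raises every log2 value, and a count minimum leaves out the genes with the fewest counts. In the second quantification the summed TPM of all members was also lower, at 187 and 159 against 426 and 244.5. For a class median the sign marks a level and not a direction of change. Why TPM differed between the quantifications, and why H2B moved in reads per kilobase, was not tested. Leaving out each library gave 0.71 to 0.99 for H1, 0.39 to 1.51 for H2A, 0.88 to 1.10 for H2B, -0.0116 to 0.93 for H3 and 2.72 to 3.27 for H4. It gave 41 to 52 members at 1 TPM, 0.0242 to 0.0352% of counts and a pair difference of -0.21 to 0.40, which turned without replicate 1.

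Members apart between libraries numbered 14 of 37 at a mean count of at least 20 and 8 at 50, where more genes enter. The share over all genes was not computed at these minimums, so these counts have no background beside them. The next alternatives were chosen after seeing the data. Without Hist3h2a the members held 0.0208% of counts, and members without a stem-loop had a median ratio of -0.22. With identical genes merged 3 units were apart. In all, 47 alternatives stayed within the SD between the libraries or, for counts and ratios, within 1.5 times the reported value. A further 13 moved past this and 4 changed sign. For values averaged over both libraries, leaving out a library always falls within that SD, so those alternatives could not show a move. Low counts, and copies that share reads, limit the single genes.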

Other observations

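The 3 genes with a histone symbol that are annotated as pseudogenes, and so are not among the 67, differed in level. Hist3h2bb-ps had 0.89 and 1.79 TPM from 6 and 11 counts, above the 1 TPM line in replicate 2, and Hist1h2aj and Hist1h2al had no count in the gene-level tables. In the second quantification Hist1h2aj was given 0.50 and 1.43 TPM, so the same gene lay at 0 in one quantification and above 1 TPM in the other in replicate 2.

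The Hist1 cluster on chromosome 13 has a gap of 1487374 bases between neighbouring members, against 197634 for the next largest. The 23 genes before the gap and the 31 after it had medians of 2.15 and 2.52 TPM in replicate 1 and of 1.66 each in replicate 2. Their median ratios between the libraries were -1.14 over 8 genes and -0.51 over 18, described after the values were seen and not tested. Before the gap 14 of 23 genes were detected and after it 17 of 31, beside 44.4% of all protein-coding genes.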
